A study of Homo sapiens with 18 samples.

Results

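The comparison described here sets SW48 colon cancer cells with both CHD4 and DNMT1 knocked down by RNA interference against the same cells given a control siRNA. It uses 6 of the 18 RNA sequencing libraries of the series, 3 per group, chosen by their labels. SW48 is an established human colon adenocarcinoma line, grown in medium with 10% serum. Control cells received the control siRNA on days 1, 3 and 6 and gave RNA on day 8. Double-knockdown cells received siDNMT1 on days 1, 3 and 5 and siCHD4 on days 7 and 8, and gave RNA on day 11. Treatment and schedule therefore cannot be told apart in this comparison. Cells given siDNMT1 and then control siRNA on days 7 and 8 also gave RNA on day 11, and cells given siCHD4 on days 1, 3 and 6 gave RNA on day 8, so each single knockdown shares the schedule of 1 of the 2 groups. The remaining groups of the series were given 50 nM of the drug decitabine, with or without siCHD4, and gave RNA on day 5. Their libraries are not compared here but enter the filter on low values and the shared fit. Whether the 3 libraries of each group are separate cultures is not stated in the labels. The p-values then cover the spread among these libraries alone, and that spread may be technical.

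CHD4 supplies the ATPase activity of NuRD, a complex for nucleosome remodelling and histone deacetylation that slides nucleosomes and removes acetyl groups from histones, and is known mainly as a repressor of transcription. DNMT1 copies CpG methylation onto the new DNA strand after replication, so that cells which divide without it lose methylation passively. Many germ-cell genes and genes with CpG islands in colon cancer cells are held silent by promoter methylation, and NuRD can occupy such promoters.

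The deposited values are FPKM, fragment numbers scaled by transcript length and by library size, which allow levels of different genes to be compared per length. Changes are given as differences of log2(FPKM + 1), a scale that understates the change of low genes, and a gene is called where limma's Benjamini-Hochberg adjusted p over 12809 tested genes lies below 0.05. All adjusted p-values of genes are from that fit. Read counts were not used here. The relative worth of 1 fragment was estimated as the most frequent log2 ratio to control replicate 0 among genes averaging under 1 FPKM. It lay between -0.29 and 0.07 over the 6 libraries. In siCHD4 replicates 0, 1 and 2 it was -0.67, -0.55 and 0.01, and in decitabine replicate 0, part of the shared fit, 2.03. In some genes siCHD4 replicate 2 also stood apart in level, such as LUM (0.181, 0.341 and 2.65 FPKM in siCHD4 replicates 0, 1 and 2). Means for siCHD4 do not show this. The controls correlated with each other at r = 0.964 to 0.980, the double-knockdown libraries at 0.964 to 0.968, and libraries of different groups at 0.889 to 0.915 over the tested genes. Control replicate 2 had fewer genes listed at 0 (8170) than the other controls (8590 and 8668).

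Both targets were low in the double-knockdown libraries. CHD4 (chr12:6679248-6723690, GRCh37) stood at 59.1, 61.2 and 68.2 FPKM in the controls and at 29.0, 27.1 and 29.1 FPKM after the double knockdown. The groups did not overlap, and the log2 change was -1.12 (SE 0.14, adjusted p = 7.65e-06). DNMT1 (chr19:10244018-10341962, GRCh37) stood at 45.0, 43.7 and 45.4 FPKM in the controls and at 12.6, 11.0 and 12.8 FPKM after the double knockdown, a log2 change of -1.80 (SE 0.11, adjusted p = 5.21e-09). For each target, permuting the 6 library labels (an exact two-sided test) gave p = 0.1, the smallest p that 3 libraries against 3 allow. Set against the single knockdowns, CHD4 was not called different from siCHD4 alone (log2 difference -0.11, adjusted p = 0.566) and DNMT1 was not called different from siDNMT1 alone (-0.02, adjusted p = 0.893).

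**Figure D1:**
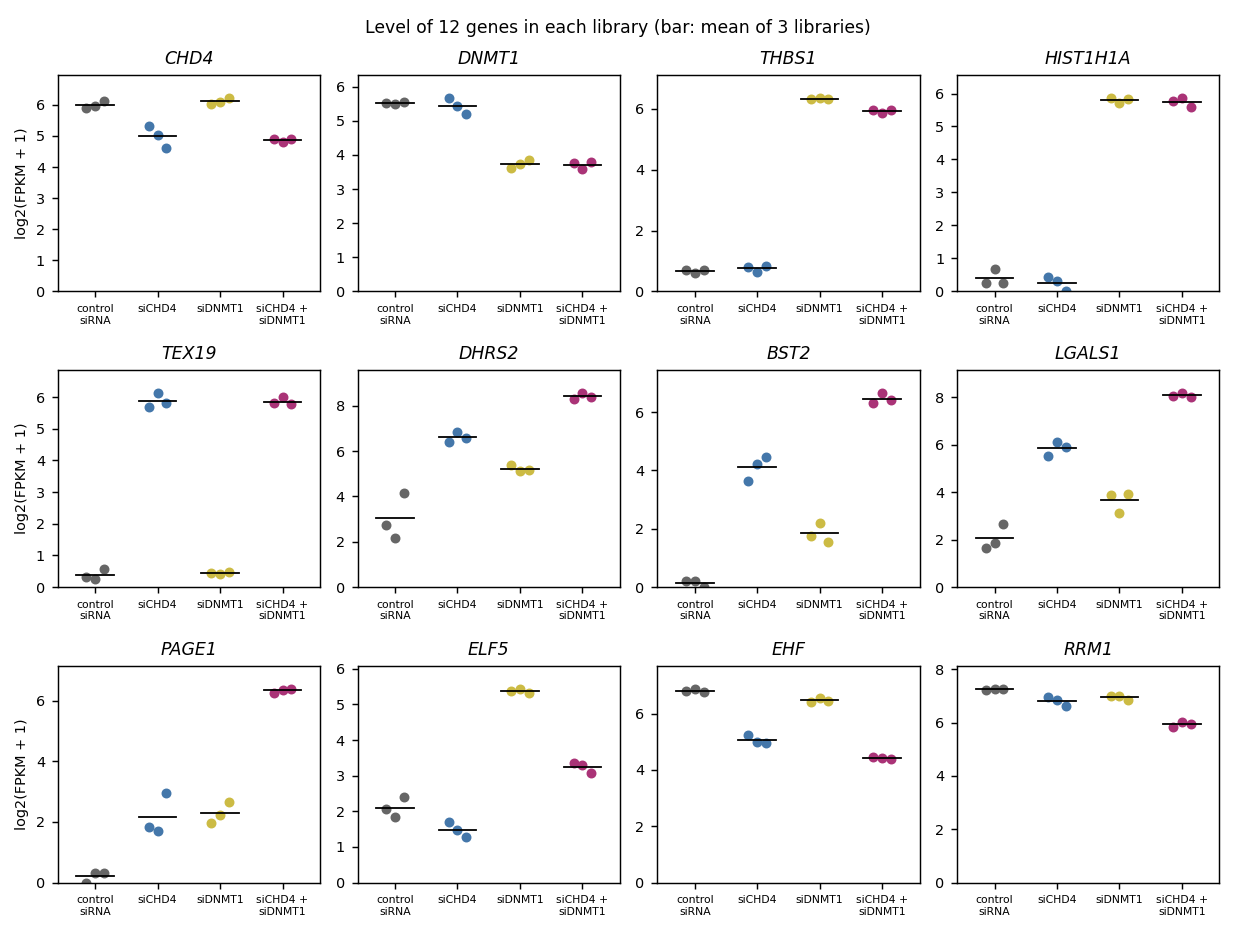
Level of 12 genes as log2(FPKM + 1) in the 3 libraries of each of 4 groups (points), with the mean of the group (bar), each panel on its own axis starting at 0. CHD4 and DNMT1 were low in the groups that received their siRNA. THBS1 and HIST1H1A were high with siDNMT1, TEX19 with siCHD4, and DHRS2, BST2, LGALS1 and PAGE1 were highest with both.

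Of the tested genes 7571 (59.1%) were called, 3752 (29.3%) higher and 3819 (29.8%) lower. The 2 directions differed in size. A change of at least 1 on the log2 scale was reached by 1114 called genes upward (8.7%) and 561 downward (4.38%), and a change of at least 2 by 257 upward and 11 downward. The 3 double-knockdown libraries lay outside the range of the 3 controls for 9029 genes (70.5%). Between libraries, 11477 to 11609 genes reached 1 FPKM in the controls and 12434 to 12502 after the double knockdown.

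Genes that the controls hardly expressed were called higher far more often than genes that the double knockdown hardly expressed were called lower. Without any filter on low values, 7503 genes averaged under 0.5 FPKM in the controls, and 2686 of them were called higher after the double knockdown. In the opposite direction, 6256 genes averaged under 0.5 FPKM after the double knockdown and 62 of them were called lower. Within the tested genes, 726 averaged under 0.5 FPKM in the controls and 655 were called higher, but such a gene enters the test only by being high in some other group, so this count alone says little. After quantile normalization it was 469, and the counts without a filter were not repeated under that normalization. Of those 655, 442 were also called higher than with siDNMT1 alone and higher than with siCHD4 alone (taken singly, 24.8% and 16.6% of all tested genes were called higher in these comparisons, which is not the share for both together), 64 only higher than with siDNMT1, 118 only higher than with siCHD4, and 31 higher than neither. These last counts all use the same 3 double-knockdown libraries and are a description.

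The promoters of genes that show these patterns are printed here from RefSeq (GRCh38.p14), 250 bases before to 50 bases after the start site, 5′ to 3′ on the gene's own strand, with every CpG in capitals. They were chosen among the genes named below to show the range of CpG content. THBS1 (chr15:39580829-39581128, plus strand, 29 CpG) and DPEP3 (chr16:67980450-67980749, minus strand, 24 CpG) are CpG-rich. PRAME (chr22:22559216-22559515, minus strand) and PAGE1 (chrX:49695935-49696234, minus strand) hold 13 each. BST2 (chr19:17405581-17405880, minus strand) holds 2 and DHRS2 (chr14:23629865-23630164, plus strand) holds 0. EHF (chr11:34624007-34624306, plus strand) holds 8 and is shown as a gene that fell.
THBS1: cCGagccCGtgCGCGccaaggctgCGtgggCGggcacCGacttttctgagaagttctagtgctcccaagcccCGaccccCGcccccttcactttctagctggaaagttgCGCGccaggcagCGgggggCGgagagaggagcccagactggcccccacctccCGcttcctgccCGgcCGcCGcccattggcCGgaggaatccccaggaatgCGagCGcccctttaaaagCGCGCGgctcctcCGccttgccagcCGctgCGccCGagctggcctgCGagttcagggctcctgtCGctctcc
DPEP3: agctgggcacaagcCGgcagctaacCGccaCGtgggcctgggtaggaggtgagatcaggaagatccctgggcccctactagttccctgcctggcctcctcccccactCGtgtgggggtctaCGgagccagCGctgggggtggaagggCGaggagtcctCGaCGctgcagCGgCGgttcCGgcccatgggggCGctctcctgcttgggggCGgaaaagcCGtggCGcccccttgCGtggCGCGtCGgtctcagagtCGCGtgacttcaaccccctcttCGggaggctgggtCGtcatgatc
PRAME: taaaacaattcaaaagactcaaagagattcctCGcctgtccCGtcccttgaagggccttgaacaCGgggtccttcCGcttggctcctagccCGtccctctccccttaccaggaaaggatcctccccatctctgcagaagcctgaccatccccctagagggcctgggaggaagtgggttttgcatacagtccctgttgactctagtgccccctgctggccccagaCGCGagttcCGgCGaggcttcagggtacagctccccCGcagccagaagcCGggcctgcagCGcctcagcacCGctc
PAGE1: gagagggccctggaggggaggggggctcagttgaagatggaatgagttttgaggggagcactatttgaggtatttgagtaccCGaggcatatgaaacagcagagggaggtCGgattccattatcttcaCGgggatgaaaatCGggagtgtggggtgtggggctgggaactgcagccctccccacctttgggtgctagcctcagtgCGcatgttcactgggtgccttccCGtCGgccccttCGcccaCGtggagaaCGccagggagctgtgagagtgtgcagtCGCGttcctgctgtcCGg
BST2: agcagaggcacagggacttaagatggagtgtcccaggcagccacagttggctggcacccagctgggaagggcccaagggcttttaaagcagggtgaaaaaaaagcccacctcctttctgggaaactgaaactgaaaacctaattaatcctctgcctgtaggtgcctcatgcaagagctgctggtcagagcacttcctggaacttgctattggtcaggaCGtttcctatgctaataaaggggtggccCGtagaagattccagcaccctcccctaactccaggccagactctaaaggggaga
DHRS2: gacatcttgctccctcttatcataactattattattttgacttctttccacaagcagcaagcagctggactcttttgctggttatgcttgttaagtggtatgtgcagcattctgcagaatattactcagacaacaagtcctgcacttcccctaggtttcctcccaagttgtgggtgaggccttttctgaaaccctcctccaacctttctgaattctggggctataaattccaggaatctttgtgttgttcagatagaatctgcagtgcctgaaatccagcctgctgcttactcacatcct
EHF: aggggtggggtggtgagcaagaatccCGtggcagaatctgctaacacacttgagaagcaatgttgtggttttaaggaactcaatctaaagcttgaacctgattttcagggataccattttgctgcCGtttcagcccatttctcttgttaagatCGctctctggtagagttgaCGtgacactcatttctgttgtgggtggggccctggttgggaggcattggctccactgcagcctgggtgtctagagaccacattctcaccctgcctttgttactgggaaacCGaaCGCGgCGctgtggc

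The first of these, THBS1, encodes thrombospondin 1, a secreted matrix glycoprotein that restrains blood vessel growth. THBS1 (chr15:39873280-39891667, GRCh37) stood at 0.638, 0.538 and 0.617 FPKM in the controls and at 60.8, 56.6 and 61.2 FPKM after the double knockdown, a log2 change of 5.24 (SE 0.08, adjusted p = 2.77e-16). It was nearly as low with siCHD4 alone (mean 0.701 FPKM) as in the controls. With siDNMT1 alone it averaged 79.7 FPKM, above the double knockdown (log2 difference -0.41, adjusted p = 0.000458). THBS1 was thus high in both groups given siDNMT1, and lower in the one that also received siCHD4.

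TEX19 showed the reverse order. This germ-cell gene (chr17:80317123-80321651, GRCh37) stood at 0.250, 0.201 and 0.498 FPKM in the controls and at 54.6, 63.1 and 53.6 FPKM after the double knockdown, a log2 change of 5.47 (SE 0.21, adjusted p = 3.52e-11). TEX19 averaged 57.6 FPKM with siCHD4 alone and 0.354 FPKM with siDNMT1 alone. The double knockdown differed from siDNMT1 by 5.42 (adjusted p = 1.9e-10) and from siCHD4 by -0.00 (SE 0.21, adjusted p = 0.99).

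Between these extremes lay genes whose mean was above the control with either siRNA and highest with both. DHRS2, a short-chain dehydrogenase (chr14:24099324-24114848, GRCh37), stood at 5.73, 3.54 and 16.8 FPKM in the controls and at 316, 375 and 333 FPKM after the double knockdown. The log2 change was 5.39 (SE 0.35, adjusted p = 8.46e-09), with control replicate 2 the highest control. Mean DHRS2 was 97.8 FPKM with siCHD4 and 36.7 FPKM with siDNMT1, and the double knockdown exceeded both (adjusted p = 0.00107 and 6.06e-06). BST2, or tetherin, holds budding virus particles at the cell surface and is a classical interferon-stimulated gene. BST2 stood at 0.148, 0.158 and 0 FPKM in the controls and at 78.1, 99.1 and 85.1 FPKM after the double knockdown (log2 change 6.32, SE 0.29, adjusted p = 2.05e-10), with means of 16.7 FPKM for siCHD4 and 2.63 FPKM for siDNMT1. LGALS1, which encodes the secreted lectin galectin-1, stood at 2.16, 2.65 and 5.24 FPKM in the controls and at 268, 287 and 254 FPKM after the double knockdown (log2 change 6.02, SE 0.24, adjusted p = 3.98e-11). LGALS1 averaged 57.2 FPKM with siCHD4 and 12.0 FPKM with siDNMT1, and the double knockdown exceeded both (log2 differences 2.24 and 4.42, adjusted p = 3.96e-06 and 6.94e-09).

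Cancer-testis genes of the X chromosome were among the genes that rose most. These genes are normally read in male germ cells and are silent in most adult tissues, and tumours often express them after loss of promoter methylation. Of 24 genes of the MAGE family in the table, 14 were tested and all 14 were called higher, against 29.3% of all tested genes, with a median log2 change of 2.09 against -0.00. Of 86 PAGE, GAGE, XAGE, SSX, VCX and related X-linked genes in the table, 23 were tested and 23 were called higher, with a median of 2.65. Most of these genes passed the filter only through groups in which they were high, so the counts describe which genes appeared rather than a share of the families. Without the filter 16 MAGE genes and 35 of the other list were called higher and none lower, while 6 and 42 were listed at 0 in all 6 libraries. Over all genes 5670 were then called higher and 3735 lower, out of 23571 named genes less the 3747 at 0 in every library.

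Single members show the pattern. MAGEA4 was listed at 0 in all 3 controls and stood at 10.6, 12.2 and 8.95 FPKM after the double knockdown (adjusted p = 9.25e-12). It was listed at 0 with siCHD4 alone and averaged 0.384 FPKM with siDNMT1 alone. MAGEC2 was likewise at 0 in the controls and reached 9.46, 14.0 and 10.6 FPKM (adjusted p = 1.81e-11), with a mean of 0.221 FPKM for siDNMT1. MAGEA4 and MAGEC2 belong to a family whose proteins bind RING ubiquitin ligases. MAGEB6 stood at 0.0620, 0 and 0 FPKM in the controls and at 12.4, 13.7 and 11.8 FPKM after the double knockdown. PAGE1 stood at 0, 0.254 and 0.237 FPKM in the controls and at 76.4, 80.8 and 83.2 FPKM after the double knockdown (log2 change 6.13, SE 0.32, adjusted p = 7.37e-10). PAGE1 averaged 3.85 FPKM with siCHD4 and 3.98 FPKM with siDNMT1, so the level with both lay above either (log2 differences 4.18 and 4.05, adjusted p = 8.16e-08 and 2.06e-07). VCX, from a family of small charged testis proteins, was at 0 in the controls and stood at 14.9, 15.6 and 13.7 FPKM after the double knockdown, with 0 for siCHD4 and a mean of 0.286 FPKM for siDNMT1.

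Other X-linked genes had a higher mean with siDNMT1 alone. PAGE2B was listed at 0 in the controls, averaged 0.0769 FPKM with siCHD4 and 10.8 FPKM with siDNMT1, and stood at 26.4, 27.7 and 27.0 FPKM with both. The double knockdown exceeded siDNMT1 by 1.25 (adjusted p = 5.41e-05). SSX3 averaged 4.98 FPKM with siDNMT1 and stood at 14.7, 15.2 and 14.6 FPKM with both, a difference of 1.41 (adjusted p = 1.11e-06). Copies within the MAGEA, SSX, PAGE and VCX families are close in sequence, and how the authors' counting shared reads among them is not given, so the split between members is uncertain.

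TKTL1, a transketolase-like gene of the X chromosome that is named here after its values were seen, was almost restricted to the double knockdown among these 4 groups. It stood at 0, 0 and 0.0454 FPKM in the controls and at 29.8, 31.4 and 29.7 FPKM after the double knockdown, against means of 0.0459 FPKM for siCHD4 and 0.403 FPKM for siDNMT1. TKTL1 exceeded siDNMT1 by 4.48 (adjusted p = 1.92e-09) and siCHD4 by 4.90 (adjusted p = 1.89e-10).

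The change of siCHD4 on siDNMT1-treated cells was tested against its change on cells without siDNMT1, each within its own schedule. In the former siCHD4 was given on days 7 and 8, in the latter on days 1, 3 and 6, so the length of siCHD4 treatment differs too. Over all genes 4.12% were called, of which 363 (2.83%) had a higher and 165 (1.29%) a lower siCHD4 change with siDNMT1. All 14 tested MAGE genes and 20 of the 23 other X-linked genes were among the former, but most passed the filter only through the groups in which they were high, so these counts support nothing. Examples are MAGEA4 (difference 3.06, adjusted p = 2.88e-08) and VCX (3.61, adjusted p = 2.88e-08). Without siCHD4 replicate 2 the counts were 1089 and 1468, and leaving out each other library gave 262 to 334 higher and 56 to 145 lower.

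Across the X chromosome as a whole, 75 of 399 tested genes (18.8%) were called higher by at least 1, against 989 of 11865 autosomal genes (8.34%). Chromosome 19 had the next highest share, 13.1%. Genes under 0.5 FPKM in the controls made up 62 of the X-linked genes, 61 of them called higher at any size. On the autosomes they made up 612, with 554 called higher. Such genes entered the test only through other groups, so the shares by chromosome depend on the filter. No test of the difference between chromosomes was made, since neighbouring family members are not independent.

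**Figure D2:**
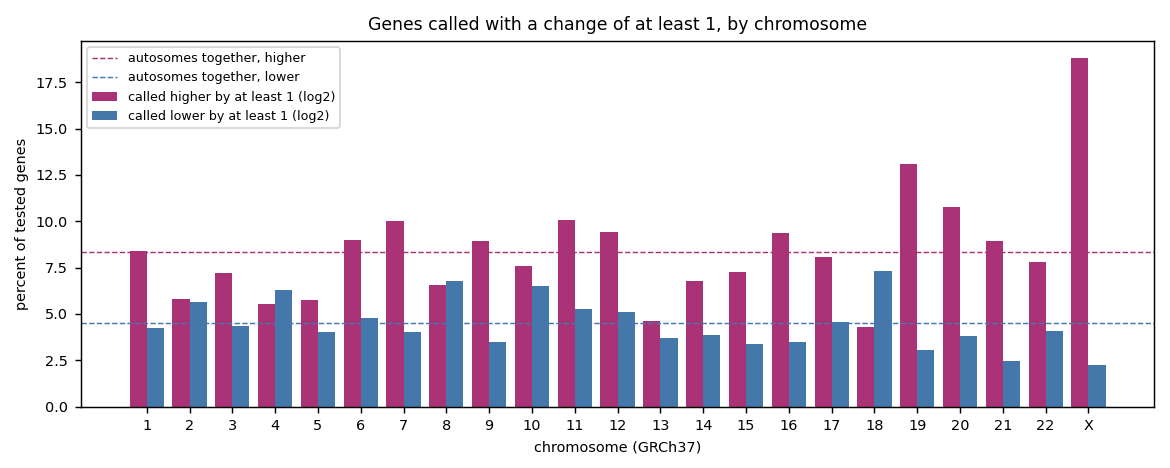
Share of the tested genes of each chromosome that were called higher (red-purple) or lower (blue) by at least 1 on the log2 scale, with the shares over the autosomes as dashed lines. Chromosome X stood highest at 18.8% upward, followed by chromosome 19 at 13.1%. The shares include genes silent in the controls that entered the test only through other groups.

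Most other germ-cell genes tested were called higher too. In the list of piRNA pathway and meiosis genes, whose products silence transposons or pair and recombine chromosomes, 26 of 36 tested genes were called higher and 5 lower, against 29.3% and 29.8% of all tested genes, with a median of 1.56. Members silent in the controls passed the filter through other groups. Without the filter 42 of 66 were called higher and 5 lower, beside 5670 and 3735 over all genes not at 0 in every library. PRAME, a cancer-testis antigen of chromosome 22, stood at 0.0846, 0.422 and 0.225 FPKM in the controls and at 41.9, 45.9 and 43.8 FPKM after the double knockdown (log2 change 5.18, SE 0.18, adjusted p = 9.64e-12). PRAME averaged 0.572 FPKM with siCHD4 and 22.4 FPKM with siDNMT1, and the double knockdown exceeded siDNMT1 by 0.94 (adjusted p = 0.000654). DPEP3, a testis membrane dipeptidase, was listed at 0 in the controls and with siCHD4, averaged 5.62 FPKM with siDNMT1, and stood at 18.5, 19.7 and 17.6 FPKM with both. PIWIL2, a PIWI protein that binds piRNAs, stood at 0.0944, 0.0674 and 0 FPKM in the controls and at 4.78, 4.77 and 4.79 FPKM after the double knockdown (log2 change 2.46, adjusted p = 2.49e-10), against a mean of 2.95 FPKM with siDNMT1. TDRD9, a helicase of the same pathway, rose from at most 0.0253 FPKM to 3.14, 3.37 and 3.78 FPKM (log2 change 2.12, adjusted p = 5.68e-11). SOHLH1, a transcription factor of early germ cells named here after its values were seen, was at 0 in the controls and at 24.5, 28.0 and 24.4 FPKM after the double knockdown, with a mean of 3.13 FPKM for siDNMT1 and 0.0572 FPKM for siCHD4. In PRAME, DPEP3, PIWIL2, TDRD9 and SOHLH1 siDNMT1 alone gave a mean of at least 1 FPKM and siCHD4 alone gave a mean below 1 FPKM.

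Some histone genes were nearly silent in the controls and high after the double knockdown. Of 63 tested genes of the replication-dependent clusters, a group chosen after its values were seen, 20 were called higher and 25 lower, against 29.3% and 29.8% of all tested genes. HIST1H1A, a linker histone gene, stood at 0.189, 0.606 and 0.188 FPKM in the controls and at 54.1, 57.5 and 47.5 FPKM after the double knockdown (log2 change 5.36, SE 0.20, adjusted p = 1.96e-11). It averaged 55.0 FPKM with siDNMT1 alone, and the double knockdown was not called different from that (-0.05, adjusted p = 0.842). HIST1H4I stood at 2.01, 1.43 and 0 FPKM in the controls and at 91.9, 103 and 89.6 FPKM after the double knockdown, with 83.4 FPKM for siDNMT1. HIST1H3C was at 0 in the controls and reached 90.9, 93.3 and 74.3 FPKM, above siDNMT1 (mean 45.0 FPKM, difference 0.92, adjusted p = 0.032). HIST1H2BG and HIST1H2AE, of the same cluster, stood at 171, 201 and 162 and at 115, 119.9 and 103 FPKM after the double knockdown against at most 0.456 FPKM in the controls. Histone genes are near-identical copies, so reads can be shared among them and the level of each is uncertain. Relative to siCHD4 alone 41 of the 63 were called lower and 17 higher (all tested genes 19.4% and 16.6%), and under quantile normalization the comparison with the control gave 24 higher and 13 lower, so the direction of the group as a whole depends on the scaling. The count of histone genes called lower than the control also fell to 12 without control replicate 2, 15 without double-knockdown replicate 0 and 14 without double-knockdown replicate 2.

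Of 40 tested members of the interferon-stimulated list 16 were called higher and 10 lower (median 0.23), against 29.3% and 29.8% of all tested genes. IFI27 stood at 0, 0.789 and 0.490 FPKM in the controls and at 18.0, 23.5 and 18.9 FPKM after the double knockdown (log2 change 3.92, SE 0.30, adjusted p = 6.38e-08), while siCHD4 averaged 0.929 FPKM and siDNMT1 1.45 FPKM. IFITM1, a membrane protein that blocks virus entry, stood at 1.91, 2.50 and 2.97 FPKM in the controls and at 37.5, 39.1 and 29.9 FPKM after the double knockdown (log2 change 3.40, SE 0.20, adjusted p = 2.92e-09). With siDNMT1 alone IFITM1 averaged 53.5 FPKM, above the double knockdown (difference -0.59, adjusted p = 0.0234). CMPK2, a mitochondrial nucleotide kinase, fell from 4.73, 4.49 and 6.37 FPKM to 0.950, 1.03 and 1.17 FPKM (log2 change -1.58, SE 0.15, adjusted p = 6.31e-07). In the antigen presentation list 7 of 19 tested genes were called higher and 5 lower, near the same shares. HLA-B went from 199, 192 and 188 FPKM to 324, 329 and 325 FPKM (log2 change 0.75, adjusted p = 1.95e-06), whereas PSMB8, an immunoproteasome subunit, went from 89.0, 92.9 and 87.1 FPKM to 48.8, 51.3 and 45.5 FPKM (log2 change -0.87, adjusted p = 8.28e-06).

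Several genes were high with siDNMT1 and lower again once siCHD4 was added. Among all tested genes 41 were called higher than the control and lower than siDNMT1. ELF5, an epithelial ETS transcription factor, stood at 3.15, 2.57 and 4.33 FPKM in the controls, averaged 40.7 FPKM with siDNMT1, and stood at 9.18, 8.85 and 7.49 FPKM with both. It was above the control (log2 change 1.14, adjusted p = 4.72e-05) and below siDNMT1 (-2.14, adjusted p = 2.75e-07). APOBEC3G, a cytidine deaminase that acts on retroviral DNA, averaged 7.63 FPKM with siDNMT1 and stood at 0.669, 0.727 and 0.552 FPKM with both, overlapping the controls (0.133, 0.213 and 0.662 FPKM, log2 change not called, adjusted p = 0.371). The difference of APOBEC3G from siDNMT1 was -2.39 (adjusted p = 2.27e-05). None of the 4 tested APOBEC genes was called against the control by limma, at an adjusted or an unadjusted p of 0.05. S100A4, named here after its values were seen, averaged 2147 FPKM with siDNMT1 and stood at 872, 839 and 868 FPKM with both, against 628, 639 and 600.2 FPKM in the controls. S100A4 codes for a small calcium-binding protein linked to cell movement, and its difference from siDNMT1 was -1.32 (adjusted p = 1.14e-07).

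Genes of the mesenchymal transition list and collagen genes were mostly called higher. Of 17 tested members of the former 16 were called higher and none lower (median 1.43), against 29.3% and 29.8% of all tested genes. Without the filter on low values 18 of 25 were called higher, and members silent in the controls passed it through other groups. VIM, the intermediate filament of mesenchymal cells, stood at 0, 0.180 and 0.168 FPKM in the controls and at 7.02, 6.25 and 6.47 FPKM after the double knockdown (log2 change 2.77, SE 0.25, adjusted p = 3.08e-07). ACTA2, smooth muscle actin, went from 1.90, 2.33 and 3.07 FPKM to 25.3, 19.3 and 22.6 FPKM (log2 change 2.77, adjusted p = 4.96e-09). Among collagen genes, a group chosen after its values were seen, 12 of 14 tested were called higher, and without the filter 28 of 48. COL6A3, a chain of type VI collagen, rose from at most 0.106 FPKM to 22.0, 19.7 and 20.9 FPKM (log2 change 4.36, SE 0.16, adjusted p = 1.47e-11), with means of 2.83 FPKM for siCHD4 and 3.45 FPKM for siDNMT1.

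Defining markers of other cell types were given the same reading. The summed level of 11 fibroblast markers, COL6A3 among them, was 0.175 to 0.528 FPKM in the controls and 35.7 to 36.1 FPKM after the double knockdown, and COL3A1 and POSTN were at 0 in all 3 double-knockdown libraries. All 4 tested members, COL6A3, LUM, COL1A1 and DCN, were called higher (median 2.44), against 29.3% of all tested genes. LUM, a matrix proteoglycan, stood at 0.339, 0 and 0.113 FPKM in the controls and at 8.70, 11.8 and 9.46 FPKM after the double knockdown, and COL1A1 and DCN stayed below 3 FPKM in all 6 libraries. The 15 blood cell markers summed to 5.91 to 7.18 FPKM and 12.9 to 17.9 FPKM, with MS4A1 and HBB at 0 after the double knockdown. The 9 endothelial markers summed to 0.164 to 0.190 FPKM and 1.08 to 1.14 FPKM, and none reached 1 FPKM in any library of the 2 groups, with ERG at 0 after the double knockdown. The 10 neural and glial markers summed to 15.6 to 16.9 FPKM and 16.8 to 17.2 FPKM, most of it MBP, and OLIG1 was at 0 after the double knockdown. The part of other cells in any result was not tested.

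Epithelial genes moved in both directions. Keratins 8 and 18 are the paired filaments of simple epithelia. KRT18 went from 924, 862 and 867 FPKM to 267, 283 and 272 FPKM (log2 change -1.68, SE 0.13, adjusted p = 8.03e-08), and KRT8 from 799, 735 and 881 FPKM to 349, 342 and 329 FPKM (log2 change -1.24, SE 0.13, adjusted p = 1.61e-06). Both were also low with siCHD4 alone (means 422 and 427 FPKM) and less so with siDNMT1 (828 and 681 FPKM). In the other direction VIL1, the microvillar actin bundler, went from 0.597, 0.639 and 0.851 FPKM to 6.64, 7.39 and 7.09 FPKM (log2 change 2.25, adjusted p = 8.71e-07). KRT31, a hair keratin named here after its values were seen, went from at most 0.333 FPKM to 11.5, 12.9 and 12.8 FPKM. CLDN7, a tight junction claudin, went from 74.3, 63.5 and 71.1 FPKM to 29.6, 36.9 and 30.8 FPKM (log2 change -1.08, adjusted p = 6.33e-05), with 35.1 FPKM for siDNMT1. Of 37 tested epithelial junction genes 16 were called higher and 8 lower, against 29.3% and 29.8% of all tested genes. Of 17 intestinal differentiation genes 8 were called higher and 8 lower (median 0.33, and -0.15 after quantile normalization). The 14 colon epithelium markers summed to 2112 to 2243 FPKM in the controls and 1127 to 1181 FPKM after the double knockdown, a sum led by KRT8 and KRT18, and CDX1 was at 0 throughout. By gene, 6 of the 11 tested colon epithelium markers were called higher and 3 lower (median 0.46).

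The largest falls among protein-coding genes were of EHF, ALDH3A1 and a few others. EHF, an ETS factor of epithelia, went from 111, 116 and 107 FPKM to 21.1, 20.5 and 19.8 FPKM (log2 change -2.39, SE 0.14, adjusted p = 3.48e-09). EHF averaged 32.4 FPKM with siCHD4 and 87.8 FPKM with siDNMT1, and the double knockdown lay below siCHD4 by -0.63 (adjusted p = 0.00321). ALDH3A1, which oxidises aldehydes, went from 51.5, 50.2 and 45.0 FPKM to 8.59, 8.11 and 8.09 FPKM (log2 change -2.43, SE 0.11, adjusted p = 1.87e-10), with 15.5 FPKM for siCHD4. NAPG, a SNAP protein that recycles membrane fusion complexes, went from 119.5, 123 and 119.7 FPKM to 28.5, 31.7 and 29.1 FPKM (log2 change -1.99, SE 0.11, adjusted p = 1.59e-09). NTHL1, a glycosylase of base excision repair, went from 47.4, 46.0 and 45.9 FPKM to 11.1, 11.5 and 10.2 FPKM (log2 change -1.99, SE 0.17, adjusted p = 1.78e-07). PRR15L kept another order: it averaged 1.69 FPKM with siDNMT1 and 1.42 FPKM with both, against 9.14 FPKM in the controls and 4.26 FPKM with siCHD4. The largest falls of all were of small nucleolar RNA genes such as SNORD33 (2986, 3196 and 5982 FPKM in the controls, listed at 0 in the other 3 groups). Such genes are shorter than typical sequenced fragments, so their FPKM values are uncertain. Short non-coding RNA genes were among the largest rises too. All 5 tested SNAR genes, a group chosen after its values were seen, were called higher, against 29.3% of all tested genes (highest log2 change 8.34). Only 2 of them lay above the 3 controls in all 3 double-knockdown libraries.

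Most replication genes fell. Of 48 tested members 41 were called lower, against 29.8% of all tested genes, and 2 higher, and the median log2 change was -0.88. Against the single knockdowns 38 were called lower than siDNMT1 (all tested genes 24.6%) and 38 lower than siCHD4 (19.4%). RRM1, the large subunit of ribonucleotide reductase, went from 146, 153 and 151 FPKM to 56.6, 63.5 and 61.0 FPKM (log2 change -1.30, SE 0.09, adjusted p = 1.82e-08), with means of 112 FPKM for siCHD4 and 122 FPKM for siDNMT1. RFC4, a subunit of the clamp loader, went from 73.1, 71.3 and 79.5 FPKM to 26.6, 26.2 and 26.6 FPKM (log2 change -1.46, SE 0.11, adjusted p = 5.2e-08). In both genes the siCHD4 change was larger downward with siDNMT1 than without (-0.59 and -0.71, adjusted p = 0.015 and 0.0182), as in 11 of the 48 list members, against 1.29% of all tested genes. That share rests on 165 genes, a count that ran from 56 to 1468 when 1 library was left out. Of 41 mitotic genes 18 were called lower and 1 higher (median -0.29), against 29.8% and 29.3% of all tested genes, and CCNA2, cyclin A2, went from 79.2, 75.7 and 77.9 FPKM to 39.6, 42.1 and 40.9 FPKM (log2 change -0.91, adjusted p = 5.47e-07).

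Other highly expressed housekeeping genes were mostly called lower. Of 75 ribosomal protein genes 69 were called lower and none higher (median -0.73), against 29.8% and 29.3% of all tested genes. RPL14 went from 1153, 1134 and 1133 FPKM to 449, 485 and 429 FPKM (log2 change -1.33, SE 0.13, adjusted p = 6.74e-07). Under quantile normalization, however, only 19 ribosomal protein genes stayed called lower and the median was -0.18. 3 further groups were chosen after their values were seen: 70 of 79 mitochondrial ribosomal protein genes, 40 of 46 complex I (NDUF) genes and 37 of 48 proteasome (PSM) genes were called lower, with medians of -0.87, -0.72 and -0.52. After quantile normalization 69, 37 and 24 of these were called lower, and of the replication genes 40. NDUFA9, a subunit of respiratory complex I, went from 177, 179.5 and 172 FPKM to 60.9, 72.5 and 65.2 FPKM (log2 change -1.40, adjusted p = 6.21e-06).

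These falls sat within a trend across all genes. With the tested genes in 5 equal classes by mean level over the 18 libraries, the median log2 change ran from 0.43 in the lowest class through 0.17, 0.00 and -0.16 to -0.41 in the highest. After quantile normalization the 5 medians lay between -0.09 and -0.03. That method gives every library the same distribution of values, so it largely removes such a trend by construction. Of 2562 genes in the lowest class 1301 were called higher and 211 lower. In the highest class, also of 2562 genes, 298 were called higher and 1434 lower. Over all tested genes quantile normalization gave 3227 higher and 4029 lower. Changes of highly expressed groups are therefore to be read beside a background of -0.41, and those of low genes beside 0.43. The 29.3% and 29.8% given beside the lists are shares over all levels, not matched to the level of the members. They hold for the tested genes only, not for list counts made without the filter.

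**Figure D3:**
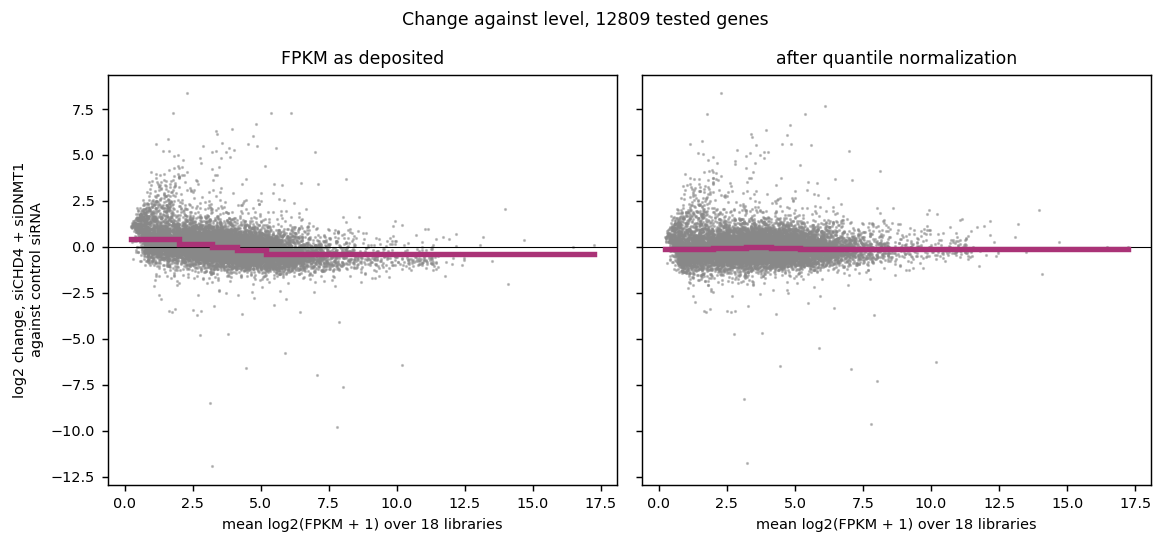
Log2 change after the double knockdown of each tested gene (grey points) against its mean log2(FPKM + 1) over 18 libraries, with the median of each of 5 equal classes by level (red-purple bars), for the values as deposited (left) and after quantile normalization (right). The medians fall from 0.43 to -0.41 on the left and lie between -0.09 and -0.03 on the right, where the normalization itself largely removes such a trend.

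Cholesterol synthesis genes were called lower more often than higher. Of 27 tested members 17 were called lower and 3 higher (median -0.46), against 29.8% and 29.3% of all tested genes. ACAT2, which makes acetoacetyl-CoA in the cytosol, went from 62.7, 58.1 and 63.8 FPKM to 16.6, 18.7 and 18.0 FPKM (log2 change -1.74, SE 0.11, adjusted p = 4.33e-09). TM7SF2, a sterol reductase of the same pathway, went the other way, from 11.8, 12.0 and 13.3 FPKM to 45.7, 47.9 and 45.5 FPKM (log2 change 1.83, SE 0.15, adjusted p = 9.77e-08), with 29.0 FPKM for siCHD4 and 14.3 FPKM for siDNMT1. Of 28 endoplasmic reticulum and amino acid stress genes 6 were called higher and 12 lower, against 29.3% and 29.8% of all tested genes. SHMT2, a mitochondrial one-carbon enzyme, went from 138, 138 and 139 FPKM to 55.1, 55.0 and 53.1 FPKM (log2 change -1.33, adjusted p = 1.11e-06).

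SW48 carries an active Wnt pathway, in which beta-catenin drives targets that include feedback inhibitors. Of 33 tested genes of the Wnt and intestinal stem cell list 18 were called higher and 5 lower (median 0.51), against 29.3% and 29.8% of all tested genes. NKD1, a feedback inhibitor that binds Dishevelled, went from 1.86, 2.20 and 2.30 FPKM to 26.6, 20.8 and 25.4 FPKM (log2 change 3.01, SE 0.22, adjusted p = 3.11e-08), and exceeded siDNMT1 (mean 9.42 FPKM) by 1.27 (adjusted p = 0.000277). AXIN2, a scaffold of the destruction complex and a Wnt target, went from 229.6, 232 and 236 FPKM to 448, 442 and 444 FPKM (log2 change 0.93, SE 0.11, adjusted p = 6.85e-06). MYC, which is also a Wnt target in colon cells, went down from 121, 111 and 106 FPKM to 47.6, 47.7 and 44.6 FPKM (log2 change -1.25, SE 0.18, adjusted p = 3.57e-05). EGFR, the epidermal growth factor receptor, went from 67.7, 81.5 and 74.9 FPKM to 176, 133 and 172 FPKM (log2 change 1.08, adjusted p = 8.41e-05). EGR1, an immediate early gene downstream of the receptor, went from 32.2, 33.1 and 26.6 FPKM to 142, 97.0 and 136 FPKM (log2 change 1.98, adjusted p = 8.2e-05).

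Imprinted genes, which are read from 1 parental copy under control of DNA methylation, were mostly called higher, 14 of 22 tested against 2 lower (median 0.52; 29.3% and 29.8% of all tested genes), and after quantile normalization 10 against 4. CDKN1C, a cell cycle inhibitor, went from 3.29, 3.90 and 2.15 FPKM to 21.3, 23.1 and 24.9 FPKM (log2 change 2.57, SE 0.26, adjusted p = 9.02e-07). H19, a non-coding RNA from the same region of chromosome 11, went from 4.73, 3.63 and 2.61 FPKM to 16.8, 16.7 and 17.0 FPKM (log2 change 1.97, SE 0.13, adjusted p = 1.51e-08), and siDNMT1 alone gave 19.8 FPKM (difference -0.21, adjusted p = 0.194). GRB10, an adaptor that dampens insulin signalling, was high with siCHD4 instead: it averaged 7.27 FPKM with siCHD4, 1.55 FPKM with siDNMT1 and 11.2 FPKM with both, against 1.80 FPKM in the controls. In the list of genes often hypermethylated in colorectal cancer, 10 of 15 tested were called higher and none lower (median 0.56). The shares over all tested genes were 29.3% and 29.8%. After quantile normalization 8 of the list were called higher and 3 lower. ESR1, the oestrogen receptor, was listed at 0 in the controls and stood at 1.08, 1.09 and 1.13 FPKM after the double knockdown, with 0.0120 FPKM for siCHD4 and 0.00593 FPKM for siDNMT1. Of the 58 genes of that list in the table most were below the level needed for the test, and without the filter 26 were called higher and none lower.

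Of 16 tested neuronal genes 12 were called higher and 1 lower (median 0.85), against 29.3% and 29.8% of all tested genes. After quantile normalization 7 were called higher and 2 lower. UCHL1, a deubiquitinase of neurons, was at 0 in the controls and with siCHD4, averaged 2.86 FPKM with siDNMT1, and stood at 8.64, 8.46 and 10.3 FPKM with both. Of 39 p53 targets 18 were called higher and 9 lower (median 0.27), against 29.3% and 29.8% of all tested genes. TP53INP1, a stress protein that aids p53, went from 1.68, 1.75 and 2.06 FPKM to 15.2, 13.6 and 14.8 FPKM (log2 change 2.46, SE 0.27, adjusted p = 2.04e-06). CDKN1A, the p53-driven cell cycle inhibitor p21, named here after its values were seen, went from 18.1, 16.4 and 34.0 FPKM to 90.3, 85.7 and 86.4 FPKM (log2 change 1.96, adjusted p = 3.19e-06), with control replicate 2 again the highest control. KITLG, the ligand of the KIT receptor, went down from 138, 142 and 129 FPKM to 45.7, 50.6 and 47.5 FPKM (log2 change -1.49, adjusted p = 1.3e-06).

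S100 and galectin genes included some of the sharpest switches. Of 20 tested genes 10 were called higher and 6 lower, against 29.3% and 29.8% of all tested genes. S100A7, an antimicrobial skin protein, was listed at 0 in the controls and with siCHD4, averaged 0.164 FPKM with siDNMT1, and stood at 8.59, 9.35 and 10.1 FPKM with both (adjusted p = 8.13e-10). Against siDNMT1 alone the difference of S100A7 was 3.18 (adjusted p = 8.82e-09). S100A14 went from 10.1, 13.0 and 11.6 FPKM to 61.2, 68.8 and 60.4 FPKM (log2 change 2.36, SE 0.21, adjusted p = 3.13e-07), and there both single knockdowns lay between (29.6 FPKM for siCHD4 and 38.5 FPKM for siDNMT1). Of 19 aldo-keto reductase and aldehyde dehydrogenase genes 4 were called higher and 10 lower, against 29.3% and 29.8% of all tested genes. AKR1C3, a steroid-converting reductase, was higher than the control (log2 change 1.57, adjusted p = 1.61e-07) but lower than with siCHD4 alone (-0.83, adjusted p = 0.000252).

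**Figure D4:**
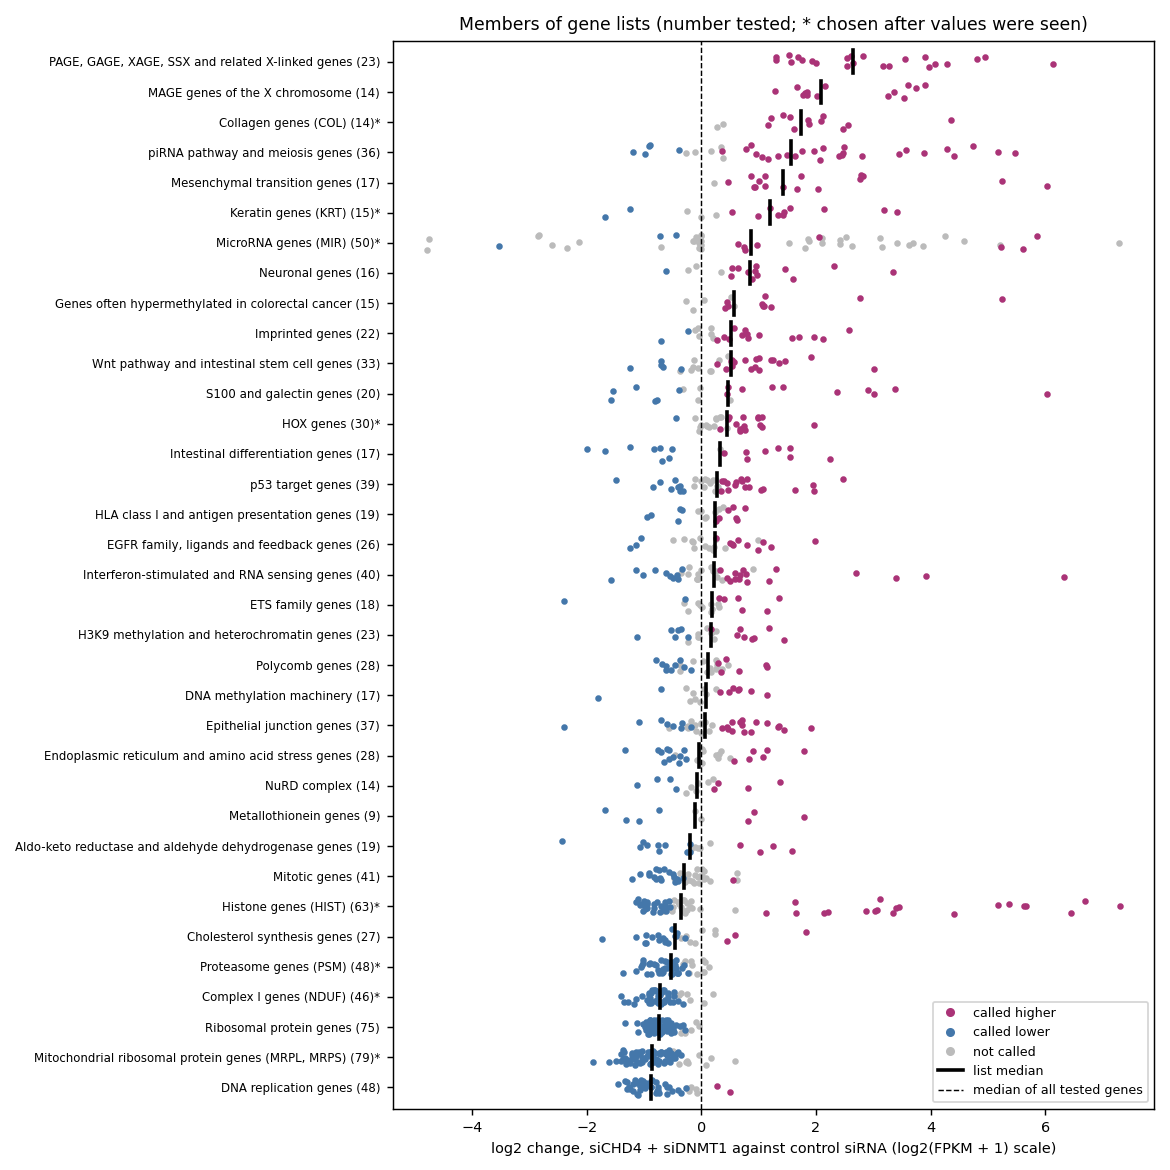
Log2 change of each tested member of the 35 gene lists with 9 to 80 tested members, cell type markers left out (points, coloured by call), with the list median (bar) and the median of all tested genes (dashed line), lists ordered by median. Among the lists shown, the X-linked cancer-testis lists lie at the top with medians of 2.65 and 2.09, and DNA replication genes at the bottom with -0.88.

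Chromatin regulators moved by smaller amounts. Apart from CHD4 itself, HDAC1, the deacetylase of NuRD, went from 127, 125 and 127 FPKM to 72.5, 76.5 and 72.4 FPKM (log2 change -0.77, SE 0.08, adjusted p = 8.83e-07). GATAD2B, a scaffold subunit, went from 2.36, 3.54 and 3.11 FPKM to 10.8, 7.10 and 10.1 FPKM (log2 change 1.36, adjusted p = 0.0002), and CHD3, the paralogous ATPase, from 5.94, 5.83 and 5.55 FPKM to 12.0, 10.1 and 10.9 FPKM (log2 change 0.82, adjusted p = 0.00128). In the NuRD list 4 of 14 tested genes were called higher and 4 lower, a share close to the background. Of 17 genes of the DNA methylation machinery 7 were called higher and 2 lower, and of 28 Polycomb genes 6 and 9, against 29.3% and 29.8% of all tested genes. EZH2, the Polycomb methyltransferase, went from 53.8, 51.9 and 56.4 FPKM to 33.4, 39.2 and 33.0 FPKM (log2 change -0.61, adjusted p = 8.21e-05). Among 23 genes of H3K9 methylation 8 were called higher and 6 lower, near the same shares. SUV39H1, a methyltransferase of that mark, went from 10.7, 9.39 and 9.31 FPKM to 4.47, 3.24 and 4.13 FPKM (log2 change -1.13, adjusted p = 3.27e-06), and KDM4B, a demethylase, from 8.24, 7.43 and 6.86 FPKM to 23.6, 20.1 and 22.9 FPKM (log2 change 1.45, adjusted p = 5.97e-07).

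The double knockdown was also tested against each single knockdown. Against siDNMT1 alone 49.4% of the genes were called, 3175 (24.8%) higher and 3148 (24.6%) lower, and against siCHD4 alone 36% were called, 2129 (16.6%) higher and 2483 (19.4%) lower. The 2 counts share the double-knockdown libraries, and the siCHD4 group also differs in schedule. The counts against siCHD4 depended on its libraries: 1612 were lower without siCHD4 replicate 1, while 2892 were higher and 3274 lower without siCHD4 replicate 2, and with library weights 4577 were higher and 4512 lower. No order of the single knockdowns is read from these counts. Of the 3752 genes called higher than the control, 1446 were also called higher than both single knockdowns, 1223 higher than siDNMT1 only, 496 higher than siCHD4 only and 587 higher than neither. Of the 3819 called lower, the same counts downward were 1721, 1043, 474 and 581. By their means GRB10, EHF and TEX19 lay nearer to siCHD4, THBS1, HIST1H1A and H19 nearer to siDNMT1, and TKTL1, PAGE1 and IFI27 examples that were highest with both.

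Promoter CpG content differed between these classes. RefSeq promoters of 300 bases were matched for 9884 of the 12809 tested genes, with a median of 26 CpG. Genes expressed in the controls had a median of 27 whether they were called higher, called lower or not called. Genes under 0.5 FPKM in the controls and called higher had a median of 15 (447 of 655 matched), and those that rose by at least 2 had 13 (120 of 175 matched). Low genes as a class have CpG-poor promoters, so the comparison without the filter matters here: among genes under 0.5 FPKM in the controls, those called higher had a median of 14 (1812 promoters) and those not called higher 8 (2995 promoters). BST2, with 2 CpG, and DHRS2, with 0, rose strongly, and their matched RefSeq promoters were almost free of CpG. Where a symbol had several promoter entries the first was taken, and the start site used in these cells was not measured.

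**Figure D5:**
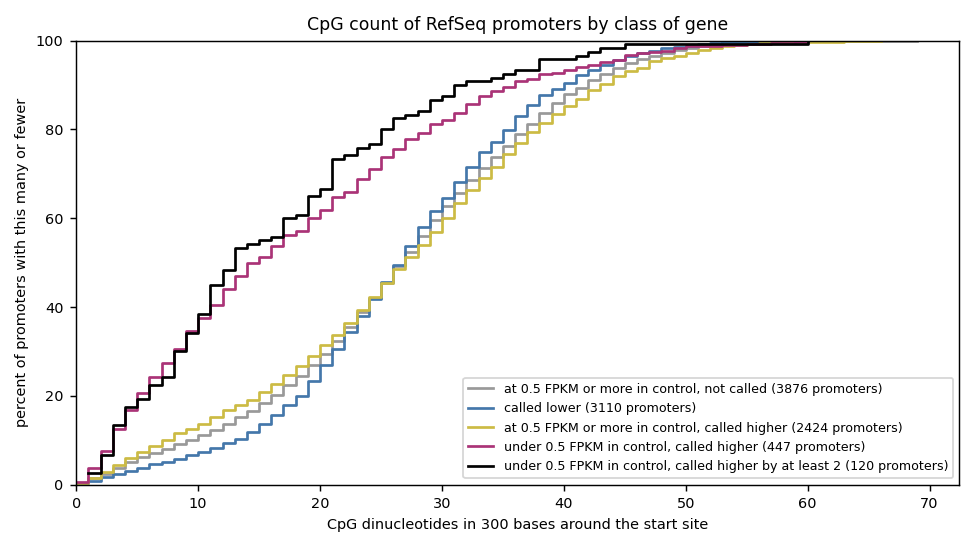
Cumulative share of RefSeq promoters by their number of CpG in 300 bases, for 5 classes of gene. Promoters of genes under 0.5 FPKM in the controls that rose (medians 15, and 13 for rises of at least 2) lie to the left of the 3 classes expressed in the controls, whose medians are 27.

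Short sequence words were counted on both strands of the same promoters. The word CACGTG, an E-box that basic helix-loop-helix factors bind, occurs in 10.5% of promoters of tested genes, in 14.2% of those of low genes that rose by at least 2, in 7.83% of all low genes that rose, and in 7.43% of all promoters in the table. It lies in the printed promoters of DPEP3 and PAGE1. The word CCGGAAG, a core that ETS factors bind, occurs in 19.6% of promoters of tested genes and in 10.7% of all promoters in the table. It occurs in 24.2% of promoters of genes called lower, in 15.3% of expressed genes called higher and in 6.04% of low genes that rose. Without the filter, among genes under 0.5 FPKM in the controls, it occurs in 7.62% of those called higher and 4.64% of those not. For CACGTG the same shares were 7.40% and 6.01%. These shares are descriptions of letters and not of binding.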

How the data were processed

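The deposited table gives FPKM per gene, made by the authors with TopHat2 2.0.9 and Cuffdiff 2.1.1 on hg19, per the submitters' processing notes. For the deposited FPKM, no source used here gives the gene annotation, filters or scaling. Libraries were stranded and ribosome-depleted from 1 µg total RNA, per the labels' protocols, which name 2 extraction kits without saying which library used which. Entries with a date in place of a name (28 of 23599) were left out. Genes at 1 FPKM or more in at least 3 of 18 libraries (12809) were tested on log2(FPKM + 1) with limma 3.58.1 (R 4.3.3), 1 mean per group over 6 groups, and p-values adjusted by Benjamini-Hochberg. The 18 libraries and 6 groups include those given decitabine. The procedure was tested on simulated data. Residuals of libraries with the same replicate number correlated between -0.310 and 0.126, so the numbers were not used as pairs. The naming rule took CHD4, DNMT1, the 15 largest called changes in each direction whose libraries do not overlap, and up to 5 members per list with the smallest p. Not every gene that met the rule is described. The members, lists and this rule were chosen with earlier results of these data known. Depth in reads is unknown. Alternatives were another pseudocount, filters, scalings, library weights, other sets of libraries, a replicate block and leaving out each library. Gene coordinates are from a GENCODE annotation on GRCh37, and promoters from RefSeq (GRCh38.p14).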

Additional observations from a re-analysis of the deposited data

Results flagged for a closer look

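The change after siCHD4 differed between cells with and without siDNMT1, by a test of the difference itself in limma (adjusted p below 0.05), for 363 genes with a higher and 165 with a lower change when siDNMT1 was present. Values below are the change with siDNMT1 minus the change without it, on the log2(FPKM + 1) scale, for the genes named in the text. Among X-linked germ-cell genes and TKTL1 the difference was 4.44 for TKTL1, 3.61 for VCX, 3.32 for MAGEC2, 3.11 for MAGEB6, 3.06 for MAGEA4, 2.10 for PAGE1, 1.49 for SSX3 and 1.15 for PAGE2B. Among autosomal germ-cell genes it was 2.62 for SOHLH1, 1.58 for DPEP3 and 1.13 for TDRD9. Among other genes it was 3.18 for S100A7, 2.77 for IFI27, 1.40 for UCHL1, 1.33 for COL1A1, 1.05 for ESR1 and 0.80 for DCN.

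Differences in the other direction were -3.46 for HIST1H2BG and -2.27 for HIST1H2AE, which were high with siDNMT1 alone. They were -2.06 for APOBEC3G, -1.62 for IFITM1, -1.52 for ELF5, -0.73 for S100A4 and -0.50 for THBS1, genes that stood higher with siDNMT1 than with both siRNAs. They were -1.04 for AKR1C3, -0.74 for ACAT2, -0.71 for RFC4 and -0.59 for RRM1. For genes listed at 0 in a group these values depend on the pseudocount. The length of siCHD4 treatment and the day of RNA also differed between the 2 settings, and their part was not tested.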

How the results depend on the processing

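Against the control, 3752 genes were called higher and 3819 lower. The higher count was 5670 without a filter and 2456 with a filter at 5 FPKM, and leaving out 1 library gave 3261 to 3558 higher and 3291 to 3625 lower. With the decitabine groups left out of the fit, but not of the filter, 3852 were called higher and 3924 lower. The share of calls that were higher was 49.6%, 52.8% after median ratio scaling and 44.5% after quantile normalization. Genes under 0.5 FPKM in the controls and called higher numbered 655, 2686 without a filter, 122 at 5 FPKM, 469 after quantile normalization and 640 to 650 without 1 library. Against siDNMT1, leaving out 1 library gave 2543 to 2981 higher and 2479 to 2940 lower. Against siCHD4 the higher count was 3492 without a filter, 1280 at 5 FPKM and 4577 with library weights, the lower count 4512 with library weights, and leaving out 1 library gave 1456 to 2892 higher and 1612 to 3274 lower. For the difference of the siCHD4 changes the higher count (363) was 205 with a pseudocount of 0.1, 861 without a filter, 120 at 5 FPKM, 2944 with library weights and 262 to 1089 without 1 library. The lower count (165) was 99 at 5 FPKM, 312 after quantile normalization, 3200 with library weights and 56 to 1468 without 1 library. The cause was not tested.

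Same-numbered libraries did not deviate together (r from -0.310 to 0.126), so the numbers were not used as a pairing. These correlations cannot show how the libraries were made. With a replicate block 3697 genes were called higher and 3732 lower than the control, and the difference of the siCHD4 changes gave 312 higher and 91 lower. Of 1209 values of the 81 genes described above under the alternatives, 1207 kept their direction and side of the threshold. The exceptions were both of APOBEC3G, whose change was -0.50 after quantile normalization and was called with library weights (0.41). Genes that met the naming rule but are not described above were outside this count, and some lost their call. SNORA6 and CD68 lost it under several alternatives, and SNORD32A and SNORA27 when single libraries were left out. TET1, NEFH, RPL5 and MT1X lost it after quantile normalization, where TET1 also turned direction. Read depth is unknown, so low FPKM values carry a counting error that was not measured here.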
